A study of Mus musculus with 78 samples.

Results

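L1Md copies are the young LINE-1 elements of the mouse genome, and 8747 of the 461206 repeat copies in the deposited tables of 4-cell and 8-cell mouse blastomeres carried this name. A copy was taken as a member when its repeat name, the part before the copy number and the chromosome, began with L1Md. The 4-cell table listed 2448 of them among 278683 repeat copies, and the 8-cell table listed 7470 among 327627. The names fell into the subfamilies L1Md_A, L1Md_T, L1Md_Gf, L1Md_F, L1Md_F2 and L1Md_F3. L1Md_T was the most numerous with 3289 copies, followed by L1Md_F2 with 2392, L1Md_A with 2147, L1Md_F3 with 521, L1Md_Gf with 229 and L1Md_F with 169.

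The study traced the daughters of the blastomeres of 2-cell embryos and sequenced the RNA of single blastomeres. The embryos came from a cross of mice with the Brainbow-2.1 cassette, a set of fluorescent protein genes behind the CAG promoter, with mice that carry a tamoxifen-inducible Cre recombinase, also behind the CAG promoter, so each embryo held a single copy of both transgenes. All were collected at 46 hpi, kept for 2 hours in 4-Hydroxytamoxifen and then cultured in KSOM, so that both stages share the transgenes, the drug and the culture, and no embryo without them entered. The labels describe 36 blastomeres of 4-cell embryos and 31 of 8-cell embryos, plus 11 of 5-cell and 6-cell embryos that were not analysed here.

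The 4-cell table had 24 columns and the 8-cell table had 26, of which 5 were named NA. No column name matched a labelled sample, and columns were not assigned to embryos or lineages by their order or values. Each stage was therefore handled as 1 sample. The blastomeres are given by their lowest, median and highest value, and no difference between the stages has a replicate check or a p-value. The developmental stage cannot be told apart from the table, its libraries and its embryos in any comparison below.

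LINE-1 elements copy themselves through an RNA that is reverse transcribed at the site of insertion. A complete element has a promoter in its 5′ end and encodes an RNA-binding protein and an endonuclease with reverse transcriptase activity, but most copies lack the 5′ end. The subfamilies L1Md_A, L1Md_T and L1Md_Gf hold the copies that are still able to move in the mouse, while L1Md_F and the L1Md_F2 and L1Md_F3 groups are older. LINE-1 RNA is known from mouse embryos of the cleavage stages, where the promoters have lost much of their DNA methylation.

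The authors counted only reads with a single position in the genome. Reads from stretches that are identical between young copies were not counted, so the numbers of L1Md copies and their values are lower than the RNA present, by an amount that was not measured. The values are FPKM, fragments scaled to the length of the copy and to the fragments of the library. For 461204 of the 461206 copies, every value could be written as whole fragments, to within 0.003 and the rounding of the table, divided by 1 length for the copy and 1 whole number for the library. A recovered length is the shortest one that accounts for the values of a copy, and can be too short for a copy seen in few blastomeres. The recovered fragments of such a copy can then be too few, so the numbers of single-fragment values are upper estimates. The library denominators ran from 6884378 to 16904615 fragments in the 4-cell table, with a median of 13389499, and from 2341593 to 21782101 in the 8-cell table, with a median of 17264451. Repeat copies took 10.4% to 16.1% of the denominator at the 4-cell stage and 9.56% to 13.6% at the 8-cell stage. Of 11 markers of early blastomeres, 9 had a median above 1 FPKM at the 4-cell stage and 6 at the 8-cell stage. Dppa3, a maternal factor of the oocyte and early embryo, was between 1303 and 4901 FPKM at the 4-cell stage and between 2474 and 10167 FPKM at the 8-cell stage. None of the 4 blood markers was listed, and of 10 cumulus and granulosa markers Amhr2 alone was above 0 in every blastomere, with 9.03 to 104 FPKM and 3.65 to 111 FPKM. Of 4 sperm markers Prm1 and Prm2 were listed, each above 0 in at most 2 blastomeres of a stage, with highest values of 8.79 and 6.00 FPKM at the 4-cell stage and 10.3 and 23.3 FPKM at the 8-cell stage.

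Some libraries stood apart. In the 8-cell columns S48 to S58 between 61.3% and 78.0% of the L1Md values came from a single fragment, against 43.4% to 55.5% in the other 15 columns. For all repeat copies the ranges were 26.4% to 42.1% and 21.8% to 26.9%. The columns S48 to S58 were not uniform, with 26.4% to 28.5% for all repeat copies in S48 to S52 and 36.3% to 42.1% in S53 to S58. Among the 4-cell blastomeres S18 stood out with 80.6% single-fragment L1Md values, where the median was 43.9%. The part of these libraries in the results was examined by leaving them out, a choice made after seeing the values.

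More L1Md copies were above 0 in the 8-cell blastomeres. A 4-cell blastomere held between 77 and 439 of them, with a median of 210.5, and an 8-cell blastomere between 223 and 2151, with a median of 735.5. In 23 of 26 8-cell blastomeres the number was above that of every 4-cell blastomere. The number of repeat copies of any kind was nearly the same, with a median of 36838 at the 4-cell stage and 36262 at the 8-cell stage.

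Relative to the repeat copies above 0 in the same blastomere, the L1Md share ran from 0.295% to 1.28% at the 4-cell stage with a median of 0.558%. It was uneven across the 4-cell columns, with 0.401% to 1.10% in S1 to S12. In S13 to S24 it was 0.295% to 0.754% apart from S18. At the 8-cell stage the share ran from 0.809% to 6.64% with a median of 2.03%, which is 3.64 times the 4-cell median. The share was above every 4-cell value in 24 of 26 blastomeres, the exceptions being S53 with 0.813% and S55 with 0.809%. The highest share, in S52, had an exact binomial 95% interval of 6.37% to 6.92%, and the highest 4-cell share, in S18, one of 1.15% to 1.42%. These intervals cover counting error only, since reads without molecular identifiers are not independent molecules. S51 with 4.97% and S48 with 4.62% followed S52, and the next lower value was 2.57% in S49. Without S48 to S58 the 8-cell share ran from 1.46% to 2.33% and its median was 3.38 times that of the 4-cell stage. The columns left out held both the highest and the lowest 8-cell shares, with 2.25% to 6.64% in S48 to S52 and 0.809% to 2.41% in S53 to S58.

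**Figure D1:**
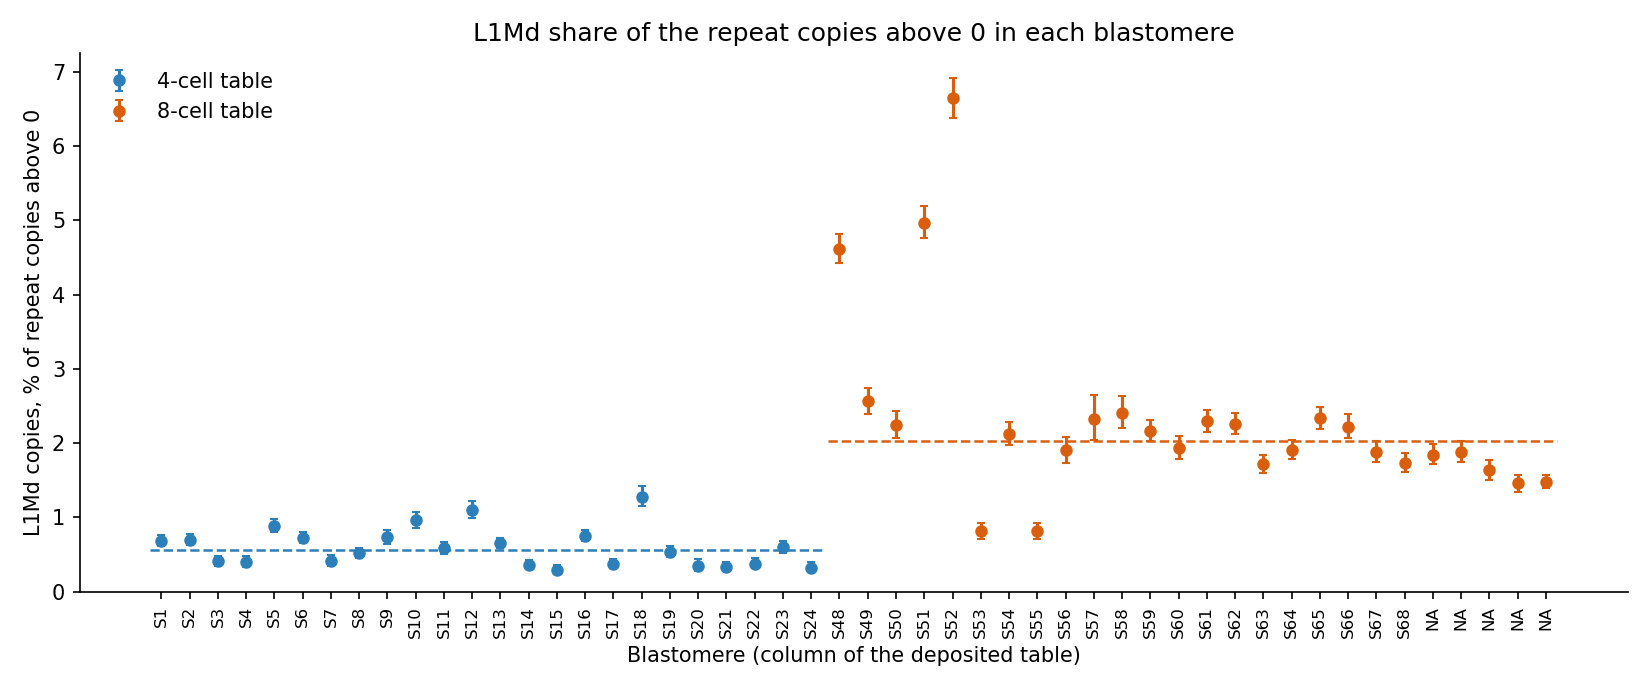
L1Md copies as a percentage of all repeat copies above 0, for each column of the 4-cell table (blue) and the 8-cell table (orange). Points carry exact binomial 95% intervals and dashed lines are the stage medians of 0.558% and 2.03%, and the columns S48, S51 and S52 lie above all others.

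The size of the stage difference varied with the rule for a copy. Counting only copies with at least 2 fragments gave shares of 0.217% to 0.841% at the 4-cell stage and 0.452% to 2.52% at the 8-cell stage, with medians of 0.420% and 1.19%. With FPKM above 1, a rule that long copies with few fragments cannot meet, the shares were 0.0955% to 0.351% and 0.195% to 0.494%, and the medians differed 2.01 times. After thinning every library to 6884378 fragments, which left out S57 with 2341593, the expected median shares were 0.500% and 1.52%, a ratio of 3.04. Keeping only copies above 0 in at least 2 blastomeres of the stage gave a larger ratio, 4.43, with medians of 0.488% and 2.17%. Under this rule it was 6.48 for L1Md_T and 6.20 for L1Md_A. With FPKM above 1 it was 2.22 for L1Md_T and 2.23 for L1Md_A, and for copies that both tables list it was 2.28 and 2.22. Between the L1Md share and the library denominator, Pearson's r was -0.10 and Spearman's rho -0.16 over 24 4-cell blastomeres. Over 26 8-cell blastomeres they were -0.03 and -0.28, given as a description because the blastomeres share embryos and libraries.

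The other LINE-1 copies did not show a stage difference of the same size. The share of the L1 copies outside L1Md was 2.42% in the median 4-cell blastomere and 3.23% in the median 8-cell blastomere, a ratio of 1.33. For Lx, an older rodent group of LINE-1, the medians were 1.35% and 1.73%, a ratio of 1.28. The IAP elements, endogenous retroviruses with young members, stood between them and L1Md with medians of 2.78% and 5.54%, a ratio of 1.99. None of these groups was matched to L1Md for copy length. Among the LINE-1 copies alone, L1Md made up 9.12% to 22% of those above 0 at the 4-cell stage, with a median of 13.5%. At the 8-cell stage the median was 28.6% and the highest value, in S52, was 56.9%.

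Measured in fragments, the medians lay 2.56 times apart and 12 of 26 8-cell blastomeres were above every 4-cell blastomere. This count rests on S16, the highest 4-cell blastomere, and without it 19 of 26 were above the next, S5 with 0.518%. L1Md copies took 0.0651% to 0.626% of the repeat fragments at the 4-cell stage and 0.217% to 0.944% at the 8-cell stage, with medians of 0.237% and 0.607%. The 0.0651% was that of S20, and the next lowest 4-cell value was 0.125% in S24. Of the summed repeat FPKM the L1Md copies took 0.0184% to 0.142% with a median of 0.0440%, and 0.0411% to 0.106% with a median of 0.0767%. By this measure no 8-cell blastomere lay above the highest 4-cell blastomere, S16, and without S16 3 of 26 lay above the next, S18 with 0.0951%. FPKM divides by length, so the sum gives little weight to long copies with few fragments.

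With every value above 0 counted, and with at least 2 fragments, the mobile subfamilies had larger stage ratios than the F groups. With FPKM above 1 this difference was small or absent. L1Md_T, one of the mobile subfamilies, made up 0.0820% to 0.526% of the repeat copies above 0 in the 4-cell blastomeres, with a median of 0.178%. In the 8-cell blastomeres it made up 0.332% to 3.28%, with a median of 0.976%, or 5.47 times the 4-cell value. L1Md_A, the subfamily with the A-type promoter repeats, went from a median of 0.117% (0.0252% to 0.313%) to 0.592% (0.145% to 2.37%), a ratio of 5.04. L1Md_Gf, the smallest of the mobile subfamilies in annotated copies, had medians of 0.0153% and 0.0714%, a ratio of 4.66. It was at 0 in the 4-cell blastomere S20, where 0 of 22238 repeat copies allows a share of up to 0.0135%.

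The ratios of the F groups were smaller when every value above 0 was counted. L1Md_F had a median share of 0.0174% at the 4-cell stage and 0.0369% at the 8-cell stage, a ratio of 2.11. L1Md_F2 had medians of 0.165% and 0.303%, a ratio of 1.83, and no 8-cell blastomere exceeded the highest 4-cell value, 0.719% in S18. Without S18 the highest 4-cell value was 0.272%, and 15 of 26 8-cell blastomeres exceeded it. L1Md_F3 had medians of 0.0395% and 0.0758%, a ratio of 1.92, and 3 of 26 8-cell blastomeres were above all 4-cell values with S18 and 9 without it. With LINE-1 copies as the denominator the ratio was 1.29 for L1Md_F, 1.05 for L1Md_F2 and 1.01 for L1Md_F3, against 3.04 for L1Md_T, 2.95 for L1Md_A and 2.28 for L1Md_Gf. With FPKM above 1 the ratio was 2.22 for L1Md_T, 2.23 for L1Md_A and 1.65 for L1Md_Gf, against 1.81 for L1Md_F, 1.89 for L1Md_F2 and 1.64 for L1Md_F3, so that L1Md_Gf lay below both L1Md_F and L1Md_F2.

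**Figure D2:**
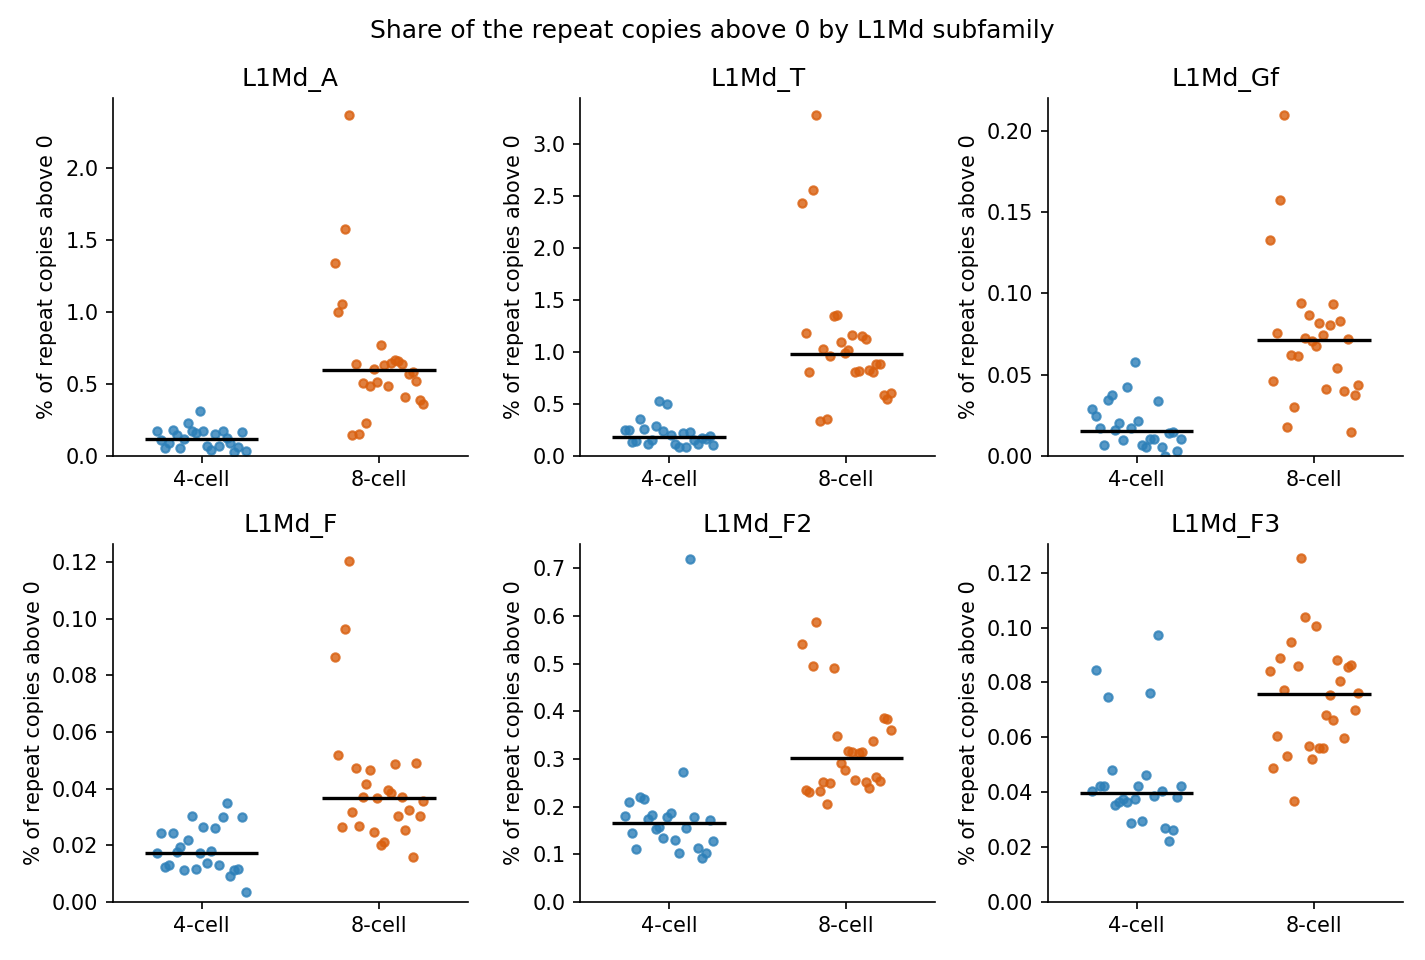
Share of the repeat copies above 0 that belong to each L1Md subfamily, in percent, with 1 point per blastomere and the stage median as a line. Each panel has its own axis from 0, and the 8-cell median is 5.47 times the 4-cell median for L1Md_T and 1.83 times for L1Md_F2.

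The makeup of the L1Md copies differed accordingly. L1Md_A and L1Md_T together made up 31.1% to 73.6% of the L1Md copies above 0 in a 4-cell blastomere, with a median of 56.3%, and 58.7% to 85.1% in an 8-cell blastomere, with a median of 77.6%. L1Md_F2 made up 16.2% to 56.3% with a median of 30.1% at the 4-cell stage, and 8.83% to 28.7% with a median of 13.8% at the 8-cell stage, where 18 of 26 blastomeres lay below every 4-cell blastomere. S18 held 192 L1Md_F2 copies of its 341 L1Md copies. It was also the blastomere with the smallest part of copies of at least 5 kb, 14.4%.

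How much of each subfamily was seen at all can be bounded from the copy numbers in the names, which run upward along each chromosome. The highest number gives the least number of annotated copies. At most 30.4% of the L1Md_Gf copies were listed in either table, out of at least 753. The bound was 14% for L1Md_T, 12.9% for L1Md_A, 4.58% for L1Md_F, 3.72% for L1Md_F2 and 3.67% for L1Md_F3, which has at least 14179 annotated copies. For L1Md_A the bound was 2.59% in the 4-cell table and 12% in the 8-cell table, and for L1Md_F3 it was 1.64% and 2.53%.

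The copies that made up the difference were long. The recovered length of the listed copies had a median of 5567 bp for L1Md_A and 5558 bp for L1Md_T, 1780 bp for L1Md_Gf, 1312 bp for L1Md_F, 614 bp for L1Md_F2 and 445 bp for L1Md_F3. A length of at least 5 kb was found for 70.8% of the L1Md_A and 68.8% of the L1Md_T copies, but for 12.3% of the L1Md_F2 and 7.87% of the L1Md_F3 copies. Among copies above 0 in at least 3 blastomeres, whose lengths rest on more values, the figures were 79.8%, 82.0%, 24.6% and 15.9%. For 19 L1Md copies the recovered length was above 8000 bp, and these lengths are doubtful.

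Per blastomere, copies of at least 5 kb numbered between 20 and 229 at the 4-cell stage, with a median of 82.5, and between 121 and 1649 at the 8-cell stage, with a median of 480.5. In 23 of 26 8-cell blastomeres this number was above that of every 4-cell blastomere. The 20 was that of S20, and the next lowest 4-cell value was 35 in S15 and S24. Copies of 1 to 5 kb had medians of 37 and 105. Copies under 1 kb had medians of 73.5 and 144, and only 1 of 26 8-cell blastomeres was above the 4-cell range of 32 to 250. The 250 was that of S18, and without it 4 of 26 were above the next value, 187. The ratio of the medians was thus 5.82 for the long, 2.84 for the middle and 1.96 for the short copies.

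Within L1Md_T and L1Md_A the ratio also went with length, and within L1Md_Gf it hardly did. L1Md_T copies of at least 5 kb had a median of 46.5 per 4-cell blastomere and 288.5 per 8-cell blastomere, a ratio of 6.20, and those under 1 kb had medians of 15 and 26.5, a ratio of 1.77. For L1Md_A the ratios were 6.37 and 2.13. For L1Md_F2 they were 2.05 and 1.67, and for L1Md_Gf 3.50 and 3.33, with 4.2 for the copies of 1 to 5 kb.

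**Figure D3:**
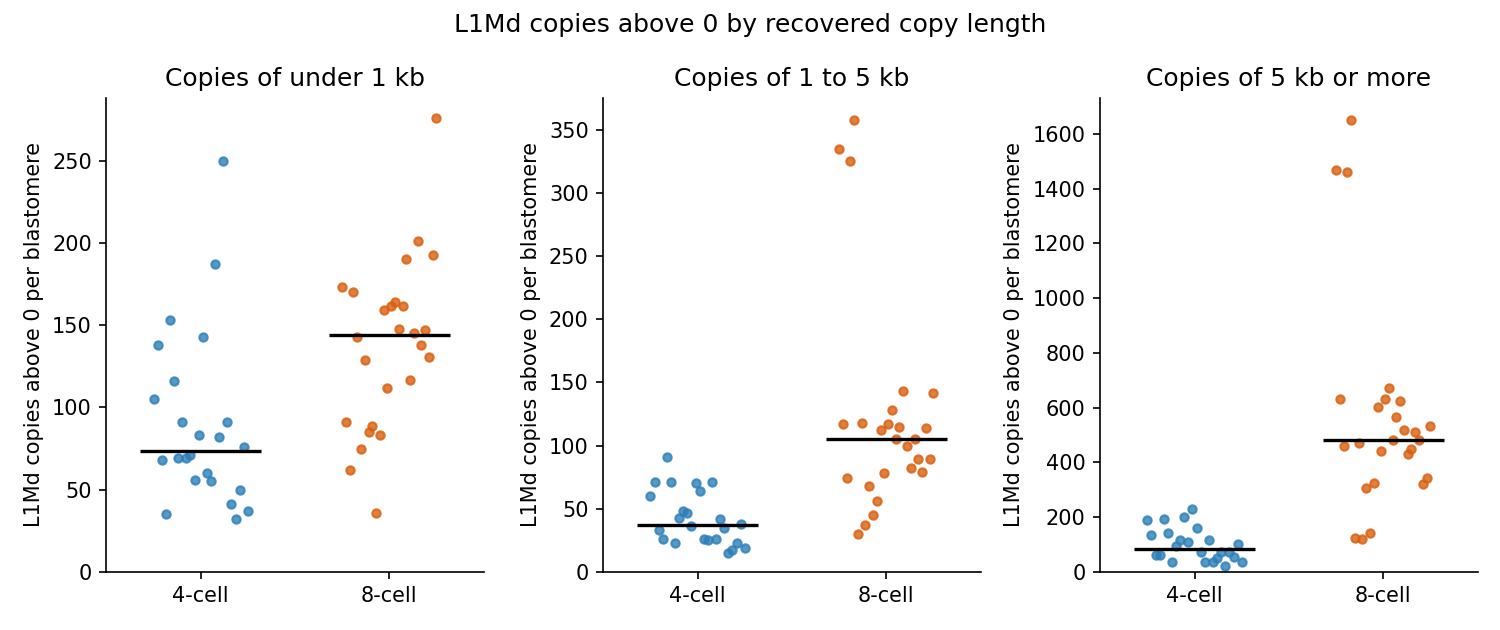
Number of L1Md copies above 0 per blastomere by recovered copy length, with 1 point per blastomere and the stage median as a line. The medians are 73.5 and 144 for copies under 1 kb, and 82.5 and 480.5 for copies of 5 kb or more.

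Most L1Md values rested on very few fragments. A single fragment lay behind 44.2% of the 5579 L1Md values above 0 at the 4-cell stage and 58.9% of the 21498 at the 8-cell stage, against 27.5% and 26.7% of the values of all repeat copies. The median L1Md value was 2 fragments, or 0.143 FPKM, at the 4-cell stage and 1 fragment, or 0.0180 FPKM, at the 8-cell stage. For all repeat copies the medians were 2.72 FPKM and 2.83 FPKM. Single fragments were most frequent in L1Md_Gf, with 57.3% and 69.5%, and in L1Md_T, with 48.2% and 62.9%.

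Values of the F groups were higher. The median value above 0 of L1Md_F3 was 0.451 FPKM at the 4-cell stage and 0.518 FPKM at the 8-cell stage, against 0.0608 FPKM and 0.0118 FPKM for L1Md_T. FPKM above 1 was reached by 39.4% and 39.1% of the L1Md_F3 values, by 34.2% and 35.2% of the L1Md_F2 values, and by 10.2% and 3.88% of the L1Md_T values. Over all blastomeres of a stage, the 10 copies with the most fragments took 25.2% of the 99720 L1Md fragments at the 4-cell stage and 13% of 318797 at the 8-cell stage. A single fragment in the whole table was all that 719 L1Md copies of the 4-cell table and 3188 of the 8-cell table had. That is 29.4% and 42.7% of the L1Md copies, beside 22.9% and 25.3% of all repeat copies. These are upper estimates, because the recovered fragments can be too few for a copy seen in few blastomeres.

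Few L1Md copies were shared by many blastomeres. At the 4-cell stage 1442 of 2448 L1Md copies, or 58.9%, were above 0 in exactly 1 blastomere, beside 54.8% of all listed repeat copies. At the 8-cell stage it was 4304 of 7470, or 57.6%, beside 59.8%. At least 12 of the 24 4-cell blastomeres shared 38 L1Md copies, or 1.55%, beside 7.21% of all copies. At least 13 of the 26 8-cell blastomeres shared 227, or 3.04%, beside 4.59%. Every 4-cell blastomere shared 4 L1Md copies, or 0.163%, beside 0.499%, and every 8-cell blastomere shared 6, or 0.0803%, beside 0.379%.

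A larger percentage of the L1Md_F2 and L1Md_F3 copies than of the L1Md_A and L1Md_T copies was seen in a single blastomere. In exactly 1 blastomere of the 4-cell table were 77.1% of the L1Md_F2 and 80.2% of the L1Md_F3 copies, and 40.5% of both the L1Md_A and the L1Md_T copies. At the 8-cell stage the figures were 74.8%, 76.9%, 49.8% and 51.8%. Of the 227 copies shared by at least 13 8-cell blastomeres 119 were L1Md_T, 71 L1Md_A and 22 L1Md_F2. The columns S48 to S58 bear on this count, which was 388 of the copies listed without them. With at least 2 fragments the 8-cell count was 46 and the 4-cell count 23, and with FPKM above 1 they were 13 and 7. No matching counts of all repeat copies are given for these settings, so the comparison with all repeat copies holds for the main rule alone.

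Between any pair of 4-cell blastomeres, the shared L1Md copies made up a median of 27.8% of the shorter list and 15.2% of the longer one, over 276 pairs. For all repeat copies these medians were 42.7% and 33.3%. Over the 325 pairs of 8-cell blastomeres they were 36.1% and 17.9% for L1Md and 37.5% and 29.6% for all repeat copies. S48 and S52, the pair with the most L1Md copies, shared 609 of them, which is 30.8% of the 1977 in S48 and 28.3% of the 2151 in S52. Of all repeat copies this pair shared 13974, or 32.6% of those in S48 and 43.2% of those in S52. Of the 4582 copies above 0 in S48, S51 or S52, 3370 were in exactly 1 of these 3, or 73.5%, close to the 71.5% of all repeat copies above 0 there. At 0 in each of the other 23 8-cell blastomeres were 2923, or 63.8%, beside 31.5%. These 3 blastomeres were picked for their high L1Md shares, so a larger part of L1Md copies seen in them alone is in part fixed by the choice.

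**Figure D4:**
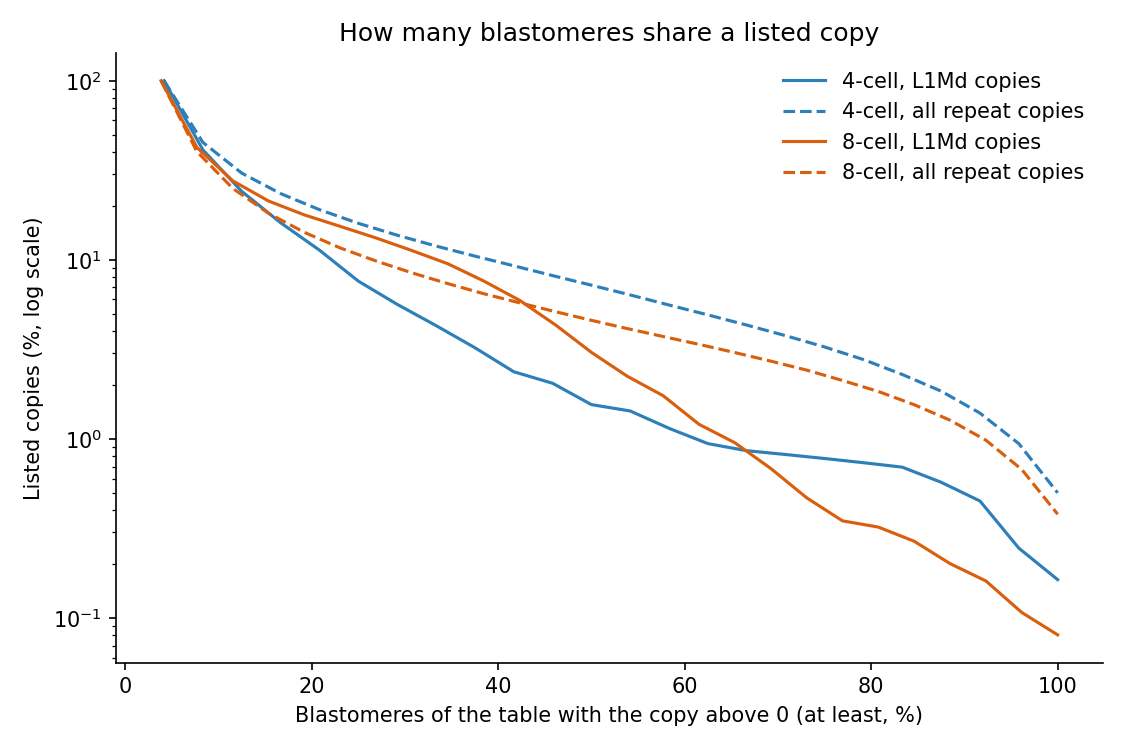
Percentage of listed copies (log scale) that were above 0 in at least the percentage of blastomeres on the horizontal axis, for L1Md copies (solid) and all repeat copies (dashed). At 50% of the blastomeres the L1Md lines stand at 1.55% (4-cell) and 3.04% (8-cell) and the lines of all repeat copies at 7.21% and 4.59%.

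The stage tables overlapped less for L1Md copies than for all repeat copies on the 8-cell side, and only slightly less on the 4-cell side. Both listed 1171 copies, which is 47.8% of the L1Md copies of the 4-cell table, beside 52.1% of all its copies, and 15.7% of those of the 8-cell table, beside 44.3%. In the 8-cell table alone were 6299 of the 8747 L1Md copies, or 72.0%, beside 39.6% of all repeat copies. In the 4-cell table alone were 1277, or 14.6%, beside 29%. The L1Md lists differed more in relative size, with 2448 and 7470 copies, than the lists of all repeat copies, with 278683 and 327627. The overlap on the 8-cell side and the parts in 1 table alone follow in part from these sizes. Of the L1Md_A copies seen at the 4-cell stage, 64.4% were listed at the 8-cell stage as well, and of those of L1Md_F2 31%.

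The copies frequent at 1 stage were looked up in the other table. They were chosen for being frequent at that stage, so a lower frequency in the other is in part fixed by the choice, and the L1Md and other repeat copies were not matched for length or fragments. Of the 227 L1Md copies shared by at least 13 8-cell blastomeres, 95 were not listed at the 4-cell stage, or 41.9%, beside 1.24% of the 15033 repeat copies that were as frequent. In at least 12 4-cell blastomeres were 33 of the 227, or 14.5%, beside 77.9%. These 227 copies had a median length of 6041 bp, against 187 bp for all repeat copies that were as frequent. In the other direction, 0 of the 38 L1Md copies shared by at least 12 4-cell blastomeres were missing from the 8-cell table, beside 0.398%, and 33 of them were in at least 13 8-cell blastomeres, or 86.8%, beside 58.3%.

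Over both tables, 750 L1Md copies were above 0 in a percentage of 8-cell blastomeres at least 25 points higher than that of 4-cell blastomeres. This is 8.57% of the L1Md copies, beside 1.23% of all repeat copies. They included 443 L1Md_T, 265 L1Md_A, 17 L1Md_Gf, 18 L1Md_F2, 4 L1Md_F and 3 L1Md_F3 copies. In the other direction were 16 L1Md copies, or 0.183%, beside 2.88% of all repeat copies, and 8 of them were L1Md_F2.

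The copies seen most widely were a small and mixed group. The names given here are the copies above 0 in the most blastomeres, the leading copy of each subfamily, and the copies with the largest stage difference. The positions of the copies within their chromosomes were not used here, so their genes and sequences are not given. L1Md_F2_dup916_chr14, on chromosome 14 with a recovered length of 454 bp, was above 0 in all 50 blastomeres. It had 2.05, 27.4 and 81.3 FPKM (lowest, median, highest) at the 4-cell stage and 10.1, 27.1 and 162 FPKM at the 8-cell stage. The 162 FPKM were 172 fragments in S57, and without this library the highest value was 67.3 FPKM. The 2.05 FPKM were 9 fragments in S18, and the next lowest 4-cell value was 11.9 FPKM in S20. The 10.1 FPKM were 78 fragments in a column named NA, and the next lowest 8-cell value was 15.5 FPKM in S59. The copy had a median of 169 fragments at the 4-cell stage and 202.5 at the 8-cell stage, and the ranges overlapped.

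L1Md_A_dup204_chr1, a 310 bp copy on chromosome 1, was also above 0 in all 50 blastomeres. Its values were 0.770, 5.46 and 21.7 FPKM at the 4-cell stage and 1.21, 4.10 and 8.43 FPKM at the 8-cell stage. L1Md_T_dup63_chr1, a copy of 5348 bp on the same chromosome, was the remaining copy above 0 in all 50. Its values were low, with 0.0149, 0.133 and 1.04 FPKM at the 4-cell stage and 0.0119, 0.106 and 0.710 FPKM at the 8-cell stage, and its median was 9.5 and 10.5 fragments. The lowest values were 1 fragment each, and without S6 the highest 4-cell value was 0.639 FPKM. In neither was the 8-cell median FPKM above the 4-cell median.

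L1Md_F3_chr3, with 6853 bp the longest of the leading copies, was above 0 in 23 of 24 4-cell and all 26 8-cell blastomeres, with medians of 0.376 and 0.315 FPKM. L1Md_A_dup304_chr3, of 6020 bp, was above 0 in the same numbers of blastomeres, with medians of 0.0860 and 0.0755 FPKM, and its highest 8-cell value was 0.355 FPKM in S57 and 0.191 FPKM without it. L1Md_T_dup407_chr12 was above 0 in 24 of 24 and 24 of 26, with medians of 0.182 and 0.0890 FPKM. L1Md_T_dup697_chr6 was above 0 in 22 and 26 blastomeres and had medians of 0.221 and 0.0707 FPKM. Its 4-cell values were split by column, with 20 to 62 fragments in S1 to S12 and 0 to 7 in S13 to S24, where 8-cell blastomeres had 1 to 16. The ranges of these 4 copies overlapped between the stages.

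L1Md_F_dup180_chr4, a 474 bp copy on chromosome 4, carried the most fragments of any L1Md copy at both stages. It took 7.48% of the L1Md fragments at the 4-cell stage and 2.53% at the 8-cell stage. It was at 0 in the 4-cell blastomeres S20 and S21 and in the 8-cell blastomere S54. In the other blastomeres it had at least 49 fragments at the 4-cell stage, and at least 32 at the 8-cell stage, and its highest values were 140 and 71.9 FPKM with medians of 50.8 and 39.8 FPKM. Without S8 the highest 4-cell value was 90.4 FPKM. The 49 fragments were in S23 and the 32 in S57, and the next lowest counts were 185 in S10 and 72 in S62. The copy was thus either abundant or not seen.

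L1Md_T_dup79_chr13, of 6644 bp, was above 0 in 22 and 25 blastomeres with medians of 0.0448 and 0.0910 FPKM. It too was uneven across columns within a stage, with 0 to 6 fragments in S1 to S12 and 0 to 54 in S13 to S24, where the median was 22. At the 8-cell stage it had 1 to 4 fragments in S48 to S52 and 1 to 71 in S53 to S58, where the median was 27.5. In S59 to S68 it had 0 to 32 fragments with a median of 10, and in the columns named NA 6 to 28. L1Md_F2_dup981_chr7, with a recovered length of 67 bp, was above 0 in 21 and 24 blastomeres with medians of 20.2 and 36.2 FPKM, or 17 and 33.5 fragments. In both the ranges of the stages overlapped. The leading L1Md_Gf copy, L1Md_Gf_dup31_chr1, was far less widely seen, in 8 of 24 and 13 of 26 blastomeres. It had 190 fragments in S6, 146 in S11 and 131 in S12 at the 4-cell stage, and 93 in S52 and 128 in a column named NA at the 8-cell stage. Its highest values were 4.01 FPKM, or 2.57 FPKM without S6, and 1.49 FPKM, while 16 4-cell and 13 8-cell blastomeres were at 0.

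The copies with the largest difference towards the 8-cell stage were 5 L1Md_T and L1Md_A copies, of which 4 had at most 5 fragments in any blastomere. L1Md_T_dup719_chr4, of 6887 bp, was above 0 in 21 of the 26 8-cell blastomeres, with a median of 0.0117 FPKM or 1 fragment. Its highest value of 0.0620 FPKM was a single fragment in S57, the library with the fewest fragments, and its most fragments were 5 in S61, at 0.0461 FPKM. It was not listed in the 4-cell table. L1Md_T_dup1094_chr3, of 6378 bp, was above 0 in 20 of 26, L1Md_A_dup426_chr4 in 18 and L1Md_A_dup929_chr1 in 18, with highest values of 5, 5 and 3 fragments, and none of them was in the 4-cell table.

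L1Md_T_dup592_chrX, on the X chromosome, was above 0 in 19 of 26 8-cell blastomeres and not listed at the 4-cell stage. It had 116 fragments in S59, 108 in S65 and 111 in S68, where its values were 0.725, 0.879 and 0.857 FPKM, and at most 3 fragments in each of the other blastomeres. The blastomeres with many fragments of this copy were clearly apart from the rest.

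The copies with the largest difference towards the 4-cell stage were mostly of the older groups. L1Md_F2_dup505_chr7, of 149 bp, was above 0 in 13 of 24 4-cell and 2 of 26 8-cell blastomeres, with highest values of 31.2 and 12.9 FPKM. Without S20 the highest 4-cell value was 15.6 FPKM, near that of the 8-cell stage. L1Md_F2_dup349_chr3, of 6167 bp, was above 0 in 11 4-cell blastomeres with at most 2 fragments, and was not listed at the 8-cell stage. L1Md_F3_dup442_chr8 and L1Md_F2_dup1198_chr12 were each above 0 in 13 and 4 blastomeres, and L1Md_T_dup465_chr2 in 10 and 1. The differences were 46.5, 45.8, 38.8, 38.8 and 37.8 points, smaller than the 69.2 to 80.8 points of the copies in the other direction.

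**Figure D5:**
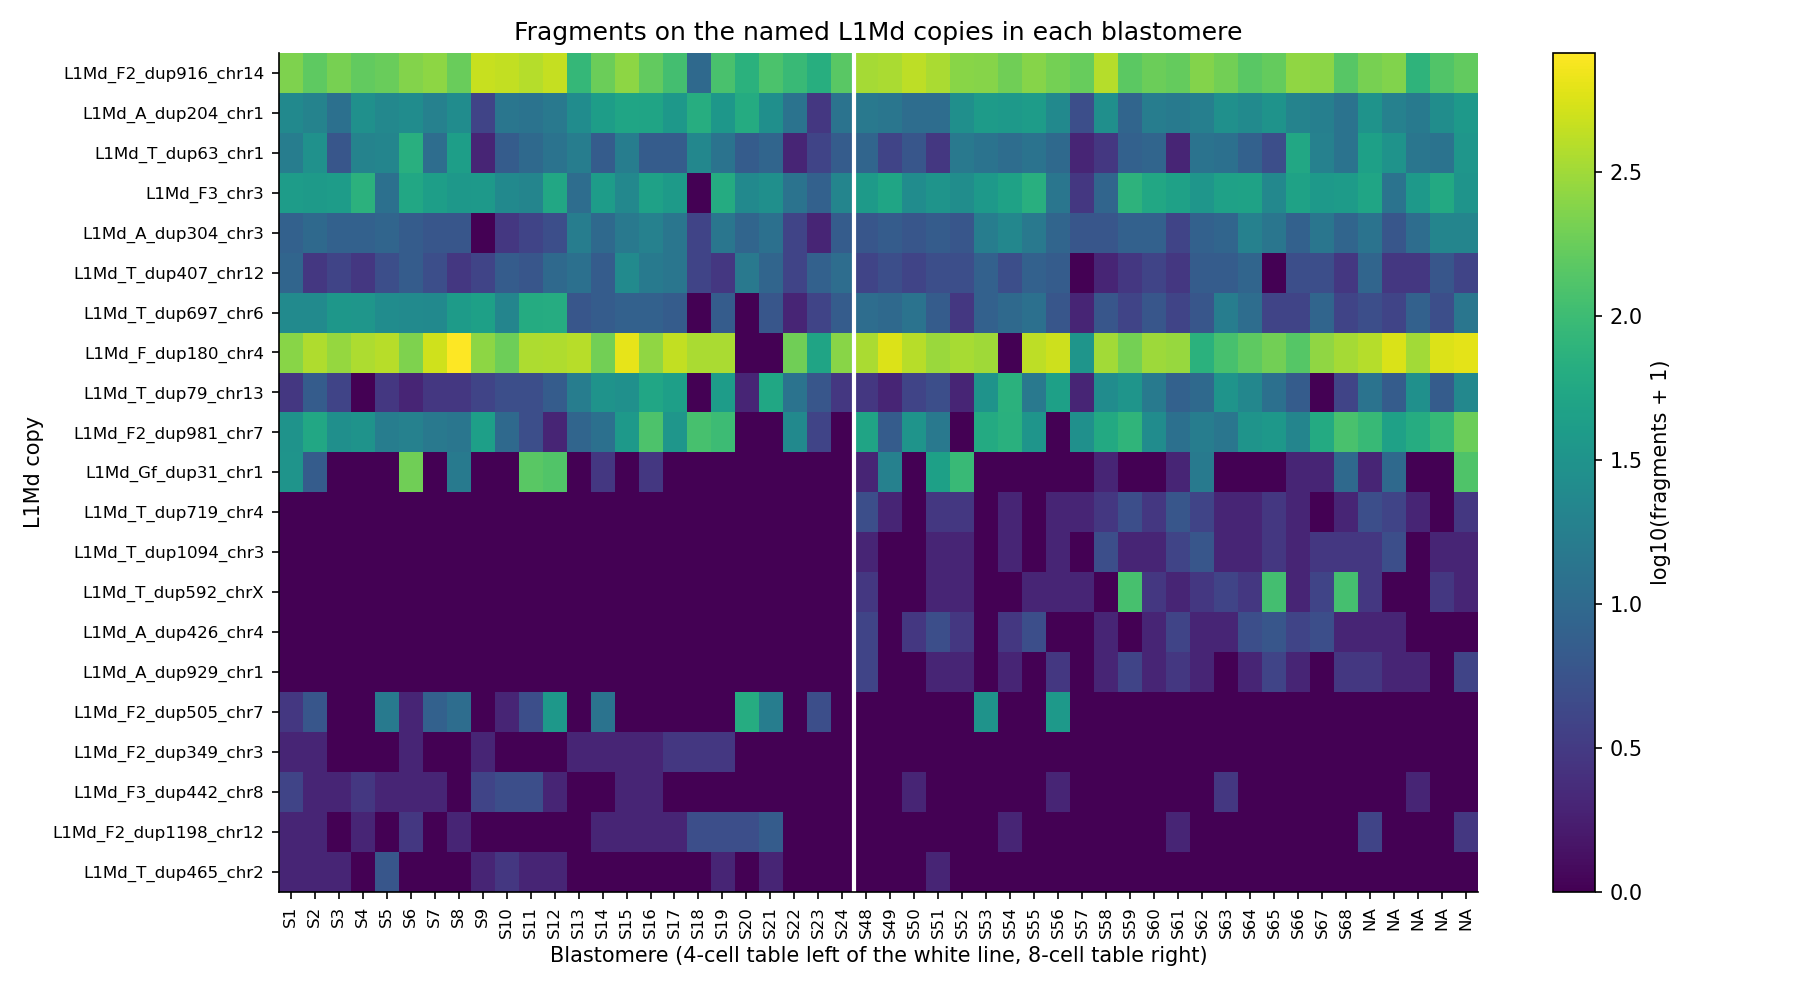
Fragments on each of the 21 named L1Md copies in each of the 50 blastomeres, as log10(fragments + 1), with the 4-cell table left of the white line. The 10 copies at the top are above 0 in at least 21 of 24 and 24 of 26 columns, and the 5 copies from L1Md_T_dup719_chr4 to L1Md_A_dup929_chr1 are above 0 in 8-cell columns alone.

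The gene tables of the same columns hold the host factors that are known to restrain or bind LINE-1. All 28 genes of this list were listed at both stages, and 24 had a median FPKM above 1 at both. Of these 24 the 8-cell median was the higher in 13, beside 48% of the 5866 genes with both medians above 1. The median log2 ratio of the 8-cell to the 4-cell median was 0.03 for the list and -0.04 for these 5866 genes. For none of the 28 did the blastomere ranges of the stages lie apart.

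Of the factors that silence repeats through chromatin, Trim28, the corepressor of KRAB zinc finger proteins, had 8.12, 59.8 and 165 FPKM at the 4-cell stage and 25.6, 121 and 280 FPKM at the 8-cell stage. Setdb1, the histone H3 lysine methyltransferase that Trim28 recruits, had medians of 6.14 and 8.32 FPKM. Of the HUSH complex, which acts on young LINE-1 copies, Mphosph8 had medians of 7.52 and 5.04 FPKM, Fam208a 3.52 and 4.61 FPKM and Pphln1 140 and 86.5 FPKM. Of the chromatin assembly factor, Chaf1a had medians of 8.29 and 5.01 FPKM and Chaf1b of 54.8 and 44.3 FPKM. The maintenance DNA methyltransferase Dnmt1 had medians of 7.72 and 2.26 FPKM.

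Of the factors that act on LINE-1 RNA or its reverse transcription, Mov10, an RNA helicase, had medians of 7.84 and 19.8 FPKM. Samhd1, which depletes nucleotides, had 39.0 and 12.4 FPKM, and Apobec3, a cytidine deaminase, 5.99 and 7.60 FPKM. Ncl, the nucleolar protein nucleolin that binds LINE-1 RNA, had 133 and 142 FPKM and was above 0 in every blastomere. Trex1, a DNA exonuclease, and Zc3hav1, an RNA-binding antiviral protein, had a median of 0 at both stages. The part of these genes in the L1Md values was not tested.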

How the data were processed

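Single blastomeres were sequenced by Smart-seq2 with Nextera XT. The authors aligned reads with STAR 2.5.1b to mm10, kept uniquely aligned reads, counted them with HTSeq on genes and on RepeatMasker copies, and deposited 4 tables. The unit of the repeat tables is not stated in the sources used here. The deposited values behave as FPKM, because they can be written as whole fragments (tolerance 0.003) over the copy's length and a whole number per library, which the gene table of the same column shares. This recovery was tested on simulated data, but the outcome is not given here and no result rests on it. A copy is listed when it is above 0 in at least 1 blastomere. No column of the 4 tables matched a labelled sample, so the tables' columns were pooled per stage and no test was run. Length classes were cut at 1 kb and 5 kb. Copies were named by 3 rules: the 10 above 0 in the most blastomeres (ties by median), the leading copy of each subfamily, and the 5 with the largest stage difference in each direction. The members, lists and rules were chosen with earlier results of these data known. Positions and sequences of the copies, and lineage, were not analysed here. Entrez gene numbers were named through the RefSeq table of GRCm38.p6. Calculations used Python, numpy, pandas and scipy.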

Additional observations from a re-analysis of the deposited data

How the results depend on the processing

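No paired analysis was possible because no column name of the tables matched a labelled blastomere, and no test was run. Of 1100 values with 1 blastomere left out 3 moved, and of 168 values under the other alternatives 41 moved. A change counted as moved when it passed the SD over blastomeres for a median, 1.5 times for a count or ratio, or the exact 95% interval for a percentage. No stage ratio turned below 1. With FPKM above 1, the median copies per blastomere were 45 and 91 (4-cell and 8-cell, a ratio of 2.02), the median shares 0.182% and 0.365% (2.01), and 283 copies were in both tables. Copies shared by at least 50% of the blastomeres then numbered 7 and 13, those of a single blastomere made up 77.6% and 72.2%, and L1Md_A with L1Md_T 31.1% and 35.6%. The parts of L1Md_A with L1Md_T in this section are percentages of the listed copies, 45.1% and 67.5% with every value above 0 counted. With copies of both tables alone the share ratio was 2.03, and among LINE-1 copies it was 2.12 with medians of 13.5% and 28.6%. Settings chosen after seeing the data were at least 2 fragments, which gave medians of 110.5 and 336.5 copies per blastomere in place of 210.5 and 735.5, 23 and 46 copies in at least 50% of the blastomeres, 65.8% and 52.8% in a single one, and 53.8% and 65.5% L1Md_A or L1Md_T, and fewer 8-cell columns. Without S48 to S58, 388 copies were in at least 50% of the 8-cell blastomeres, 40.3% in a single one, and 57.4% were L1Md_A or L1Md_T. With all columns these values were 227, 57.6% and 67.5%, and matching values of all repeat copies are not given. Without S48, S51 and S52 the part in a single blastomere was 50.3% and that of L1Md_A or L1Md_T 60.3%. Without the NA columns the part of L1Md_A or L1Md_T was 70.4%. Leaving out 1 blastomere at a time moved the single-blastomere part of the 4-cell table to between 55.5% (without S18) and 60.8%. It moved the part of L1Md_A or L1Md_T among the listed copies from 45.1% to between 44.9% and 47.8% at the 4-cell stage. At the 8-cell stage this part moved from 67.5% to between 66.1% and 68.4%. Fewer fragments in a library can limit which copies with single fragments are seen, but the causes of the changes were not tested.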

Other observations

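The X chromosome carried 832 of the 8747 listed L1Md copies, or 9.51%, beside 4.01% of all listed repeat copies. It also has a large part of the annotated L1Md copies, at least 14370 or 11.7% of the numbers in the names, so at most 5.79% of them were listed, against 7.11% over all chromosomes. The Y chromosome had 58 listed L1Md copies of at least 4712 annotated, at most 1.23%. Among the autosomes this bound ran from 6.41% on chromosome 14 to 9.19% on chromosome 9. In the 4-cell blastomeres the L1Md share went with the Lx share, with r = 0.79 and rho = 0.81 over 24 blastomeres, and in the 8-cell blastomeres less closely, with r = 0.25 and rho = 0.12 over 26. These are descriptions, since the blastomeres share libraries and embryos and both shares have the same denominator.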
